A study of Mus musculus with 2 samples.

Results

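The genes described here encode the proteins that display peptides at the cell surface on molecules of the major histocompatibility complex (MHC). They are B2m, H2-K1, H2-D1, Tap1 and Tap2 of the class I pathway and H2-Aa, H2-Ab1, H2-Eb1 and Cd74 of the class II pathway. They were taken by symbol, 9 of the 47069 genes in the count table, and all 9 were found and measured in both libraries. Levels are given in CPM, which set a gene's count relative to the total count of its library. Across all genes, 16504 had a mean of at least 1 CPM, and these are called the genes tested. All 9 MHC genes were among them and also had a mean of at least 10 CPM.

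The libraries came from dissociated primary mouse pituitary cells and were made to compare RNA-Best, a reagent meant to keep single cells usable after storage, with RNAlater, an established RNA-stabilizing reagent and the reference of the pair. Both groups came from pure C57BL/6 mice, and nothing but the storage reagent is labelled as different. Whole glands of randomly cycling females aged 10 to 12 weeks were digested with collagenase and pancreatine, and each sample pooled 500000 to 700000 cells from 5 pituitaries. The cells went straight into one or the other reagent and were shipped. There was 1 library per group, with 53915047 counts for RNA-Best and 44917492 for RNAlater, so no difference below has a replicate check and no p-value is given. Intervals are 95% exact intervals on the counts. They cover counting error and nothing else, because 1 library per group shows no spread between samples. Even for counting error they may be too narrow, because PCR copies that carry no molecular identifier are not independent molecules.

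Class I molecules are made by nearly every nucleated cell and show peptides cut from proteins inside the cell. Peptides produced by the proteasome are pumped into the endoplasmic reticulum by the transporter TAP, a dimer of Tap1 and Tap2, and are loaded there onto a heavy chain such as H2-K1 or H2-D1 paired with beta-2 microglobulin, the product of B2m. Class II molecules are pairs of an alpha and a beta chain that show peptides of engulfed proteins and belong mainly to macrophages, dendritic cells and B cells. The invariant chain Cd74 guides them through the cell and blocks their groove until proteases of the endosome remove it. H2-Aa and H2-Ab1 are the chains of I-A. H2-Eb1 is the beta chain of I-E, whose alpha chain gene is defective in C57BL/6 mice.

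Class I and class II genes share a promoter module in which an X box, bound by RFX and CREB factors, lies a fixed distance before a Y box, bound by NF-Y. The coactivators Ciita, for class II, and Nlrc5, for class I, act through it and do not bind DNA themselves. The module is shown because it is what members of both classes have in common outside the counts. RefSeq promoters of GRCm38.p6 (300 bases around the transcription start) were at hand for 6 of the 9 genes. In the sequences that follow, read 5′ to 3′ on the strand of the gene, capitals mark TGANG, the end of the X box that CREB factors recognise, and ATTGG, the Y box. In B2m they also mark a match to GAAANNGAAA, a form of the interferon-stimulated response element. The 175-base stretches overlap no annotated exon, while for H2-D1 and H2-Eb1 the motif pair alone is given.
B2m, chr2:122147507-122147681, plus strand: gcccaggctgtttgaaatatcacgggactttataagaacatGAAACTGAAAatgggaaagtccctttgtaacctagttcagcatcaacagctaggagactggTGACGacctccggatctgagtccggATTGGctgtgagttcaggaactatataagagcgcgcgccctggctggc
H2-K1, chr17:34000353-34000527, minus strand: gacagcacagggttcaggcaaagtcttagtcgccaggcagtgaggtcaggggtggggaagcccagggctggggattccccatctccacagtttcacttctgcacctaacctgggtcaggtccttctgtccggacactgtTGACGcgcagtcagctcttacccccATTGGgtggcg
H2-Aa, chr17:34287829-34288003, minus strand: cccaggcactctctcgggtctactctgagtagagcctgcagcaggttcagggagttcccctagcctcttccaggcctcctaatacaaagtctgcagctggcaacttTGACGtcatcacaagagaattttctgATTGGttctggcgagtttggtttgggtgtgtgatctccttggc
H2-D1, chr17:35262993-35263022, plus strand: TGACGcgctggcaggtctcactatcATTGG
H2-Eb1, chr17:34305784-34305812, plus strand: TGATGctggactcctttgatgctgATTGG

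The motif starts lay 25 bases apart in B2m, H2-K1 and H2-D1, 26 apart in H2-Aa and 24 apart in H2-Eb1. The first began 78, 41, 101, 74 and 83 bases before the RefSeq start of B2m, H2-K1, H2-D1, H2-Aa and H2-Eb1. TGANG followed by ATTGG at 24 to 26 bases, on either strand, was present in 311 of 32817 promoters of the same length (0.948%). It was found in 5 of the 6 MHC promoters, Tap1 being the exception. This pattern was written down after the sequences had been read, so the count describes them and tests nothing. ATTGG alone was in 37.4% of all promoters and in all 6 of these. GAAANNGAAA was in 3.43% of all promoters and, among the 6, in B2m. Only exact matches were counted, so other forms of the interferon-stimulated response element were not looked for.

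The class I heavy chains and B2m were among the more abundant transcripts of these pituitary cells. H2-K1 and H2-D1 differed little between the libraries, while B2m, Tap1 and Tap2 were lower in RNA-Best. H2-K1 (ENSMUSG00000061232.15, chr17:33996017-34000347, minus strand, GRCm38) had an estimated count of 29421 in RNA-Best and 25125 in RNAlater, or 546 and 559 CPM. H2-D1 (ENSMUSG00000073411.11, chr17:35262730-35267499, plus strand) had 26830 and 22934, or 498 and 511 CPM. Both heavy chains were slightly lower in the RNA-Best library, with a log2 ratio of RNA-Best to RNAlater of -0.04 for each (interval -0.06 to -0.01 for both). Most genes had a lower CPM in RNA-Best, and the median log2 ratio of all genes tested was -0.18. Relative to that median, H2-K1 stood at 0.14 and H2-D1 at 0.14.

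B2m (ENSMUSG00000060802.8, chr2:122147686-122153083, plus strand) encodes the light chain that pairs with the classical class I heavy chains. It had a count of 19098 in RNA-Best and 20705 in RNAlater, which are 354 and 461 CPM. The RNA-Best value was the lower, and the counting intervals of the CPM values, 349 to 359 and 455 to 467, did not overlap. The log2 ratio was -0.38 (-0.41 to -0.35), a level 1.30-fold higher in RNAlater. B2m therefore stood 0.20 below the median of all genes on the log2 scale, the opposite side from its partners H2-K1 and H2-D1. Per kilobase of transcript, B2m was at 0.718 times the sum of H2-K1 and H2-D1 in RNA-Best and at 0.911 times that sum in RNAlater.

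Per kilobase the TAP genes were the least abundant of the 9, and Tap1 was the furthest apart between the libraries. Tap1 (ENSMUSG00000037321.17, chr17:34187553-34197225, plus strand) was counted 1426 times with RNA-Best and 1690 times with RNAlater, or 26.4 and 37.6 CPM. Tap2 (ENSMUSG00000024339.12, chr17:34203527-34216321, plus strand) had 2378 and 2577, or 44.1 and 57.4 CPM. Both subunits were lower in the RNA-Best library, with log2 ratios of -0.50 (-0.61 to -0.41) for Tap1 and -0.38 (-0.46 to -0.30) for Tap2. Both were also below the median of all genes, by 0.32 and 0.20 on the log2 scale. The ratio of Tap2 to Tap1 per kilobase was 1.43 in RNA-Best and 1.31 in RNAlater.

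The class II genes did not share 1 direction. H2-Aa (ENSMUSG00000036594.14, chr17:34282744-34287823, minus strand), the alpha chain of I-A, reached 8496 counts with RNA-Best and 6913 with RNAlater, or 158 and 154 CPM. H2-Ab1 (ENSMUSG00000073421.5, chr17:34257689-34269419, plus strand), its beta chain, had about 8155 and 5956, or 151 and 133 CPM. The log2 ratio was 0.03 (-0.01 to 0.08) for H2-Aa and 0.19 (0.14 to 0.24) for H2-Ab1. With scaling by library total, the interval of H2-Aa included 0, whereas that of H2-Ab1 lay above 0. Other scalings, given below, moved the ratio of H2-Aa beyond that interval.

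H2-Eb1 (ENSMUSG00000060586.10, chr17:34305867-34316674, plus strand) had a count of about 6792 with RNA-Best and 6115 with RNAlater, or 126 and 136 CPM. Its log2 ratio was -0.11 (-0.16 to -0.06), lower in RNA-Best by CPM but 0.06 above the median of all genes. Cd74 (ENSMUSG00000024610.14, chromosome 18, plus strand) had 13005 and 13772 counts, or 241 and 307 CPM. It had the lowest ratio of the class II genes, a log2 value of -0.35 (-0.38 to -0.31). The invariant chain was 1.22 times as abundant as H2-Aa per kilobase in RNA-Best and 1.59 times in RNAlater. Against H2-Ab1 the ratios were 1.37 and 1.99. H2-Ea-ps, the defective I-E alpha gene, had 0 counts in both libraries, which allows levels of up to 0.0556 CPM with RNA-Best and 0.0668 with RNAlater.

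**Figure D1:**
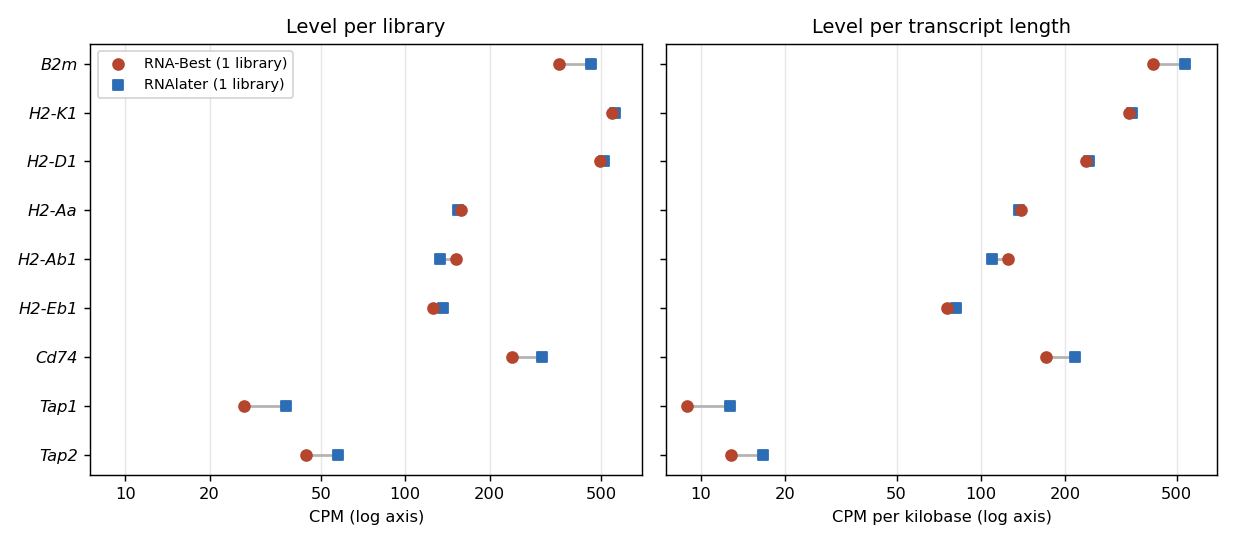
Level of each of the 9 MHC genes in the RNA-Best library (circles) and the RNAlater library (squares), as CPM on the left and CPM per kilobase of the longest protein-coding transcript on the right, both on log axes. H2-K1 and H2-D1 nearly coincide, at 546 against 559 and 498 against 511 CPM, while B2m, Cd74, Tap1 and Tap2 lie to the right in RNAlater.

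Divided by transcript length, the genes took the same order in both libraries. B2m was first, at 412 CPM per kilobase in RNA-Best and 536 in RNAlater, followed by H2-K1 at 337 and 346 and H2-D1 at 237 and 243. Cd74 came next at 171 and 217, ahead of H2-Aa at 140 and 136, H2-Ab1 at 125 and 109 and H2-Eb1 at 75.5 and 81.6 CPM per kilobase. Tap2, at 12.8 and 16.7, and Tap1, at 8.96 and 12.7, were last. In neither library did any of the 8 neighbouring pairs in this order have overlapping counting intervals. With no replicate, whether neighbours would keep their places in other animals was not tested.

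The order depends in part on which transcript sets the length. With the longest transcript of any type, which for H2-Aa keeps an intron, H2-Aa fell to 48.9 and 47.8 CPM per kilobase and ranked after H2-Eb1, and the other genes kept their order. For H2-D1, the annotated transcript begins 364 bases before the RefSeq start, and without those bases its levels were 286 and 294 CPM per kilobase. Among all genes tested, B2m per kilobase was above 99.3% in RNA-Best and 99.6% in RNAlater, and H2-Eb1, the lowest of the class II genes, above 94.5% and 95.5%. Tap1 was above 63.1% and 68.6%.

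Together the 9 genes held 0.214% of the counts in RNA-Best (exact binomial interval 0.213 to 0.216%) and 0.236% in RNAlater (0.234 to 0.237%). The log2 ratio of these sums was -0.14 (-0.15 to -0.12). H2-K1 and H2-D1 together held 1043 and 1070 CPM, and the 3 class II chains 435 and 423 CPM. The chains' sum was near equal, at a log2 ratio of 0.04 (0.01 to 0.07), while Cd74 beside them was lower in RNA-Best.

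Across the list, 2 of the 9 genes had a log2 ratio above 0, beside 33.0% of all genes tested. None was at least 2-fold higher in RNA-Best, beside 0.273% of all genes, and none at least 2-fold lower, beside 4.99%. The median log2 ratio of the 9 genes was -0.11, against -0.18 for all genes. It was -0.38 for the 5 class I genes, 0 of which were above 0, and -0.04 for the 4 class II genes, of which H2-Aa and H2-Ab1 were above 0. The class medians moved with the processing and were -0.20 and 0.13 under TMM scaling (described next). With the trend on transcript length removed they were nearly equal, at -0.11 and -0.12. That near equality depended on the length used, since with the longest transcript of any type they were -0.14 and -0.03. Relative to the median of all genes, 5 of the 9 were above it (H2-K1, H2-D1, H2-Aa, H2-Ab1 and H2-Eb1) and 4 below it (B2m, Cd74, Tap1 and Tap2).

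The sign of the small ratios was set by the scaling. The hormone transcripts prolactin (Prl) and growth hormone (Gh) took a large share of both libraries, and Prl alone reached 235654 CPM with RNA-Best against 172302 CPM with RNAlater. Scaling by the trimmed mean of M values (TMM) moved the median of all genes by 0.16 on the log2 scale, DESeq2 size factors by 0.17, and a total without Prl and Gh by 0.12. Under each of these scalings 5 of the 9 genes were above 0, beside 48.6%, 49.6% and 44.5% of all genes. H2-K1, H2-D1 and H2-Eb1 changed sign, to 0.14, 0.14 and 0.06 under TMM. B2m, Cd74, Tap1 and Tap2 were lower in RNA-Best under all 4 scalings, and H2-Aa and H2-Ab1 higher, H2-Aa by less than its counting error in the first of them. The same 5 genes stayed above the median of all genes, which tests nothing, because a scaling shifts every gene and that median by nearly the same amount.

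**Figure D2:**
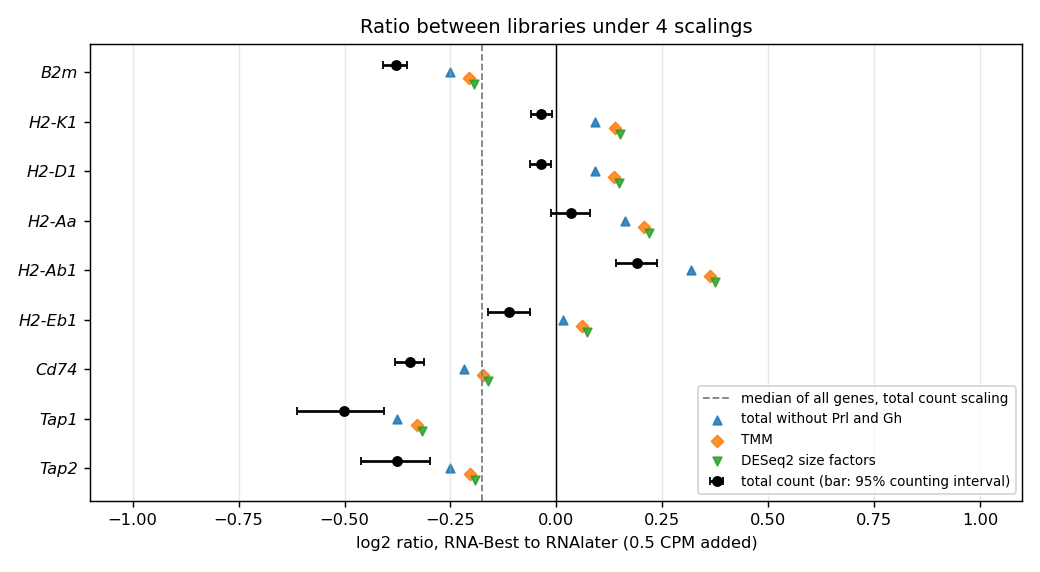
Log2 ratio of RNA-Best to RNAlater for the 9 genes under 4 scalings, with 95% counting intervals as bars on the values scaled by total count, and the median of all genes tested (-0.18) as a dashed line. The ratios run from -0.50 for Tap1 to 0.19 for H2-Ab1 by total count, and H2-K1, H2-D1 and H2-Eb1 cross 0 under the other scalings.

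The ratio between the libraries also moved with transcript length over all genes. The median log2 ratio was 0.29 for the 2222 genes of up to 1 kilobase, 0.06 for the 3199 genes of 1 to 2 kilobases, -0.12 for the 3240 genes of 2 to 3 kilobases and -0.26 for the 2715 genes of 3 to 4 kilobases. B2m, with a transcript of 860 bases, is a short gene, and its log2 ratio of -0.38 was lower than that of all but 4.37% of the genes of up to 1 kilobase. Cd74 (1410 bases) was lower than all but 10.9% of the genes of 1 to 2 kilobases, and Tap1 (2953 bases) lower than all but 11.2% of those of 2 to 3 kilobases. Tap2 (3442 bases) was nearer the middle of its class, with 34.9% of the genes of 3 to 4 kilobases below it. The other members lay inside their classes, from H2-Eb1 (1669 bases) with 28.9% below it to H2-Ab1 (1212 bases) with 67.6% below it.

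Measured from a smooth trend of the log2 ratio on transcript length, 7 of the 9 genes were below it and H2-D1 (2102 bases, 0.03) and H2-Ab1 (0.07) above it. The share of all genes below the trend is not given here, so the counts below it describe the 9 genes alone. B2m was 0.59 below the trend, Cd74 0.42 and Tap1 0.31, on the log2 scale. H2-K1 (1619 bases), H2-Aa (1128 bases), H2-Eb1 and Tap2 were between 0.06 and 0.13 below. With the longest transcript of any type, 6 of the 9 were below the trend and H2-Aa turned to 0.23 above it, while B2m and Cd74 stayed 0.58 and 0.42 below. What the trend itself reflects was not tested.

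**Figure D3:**
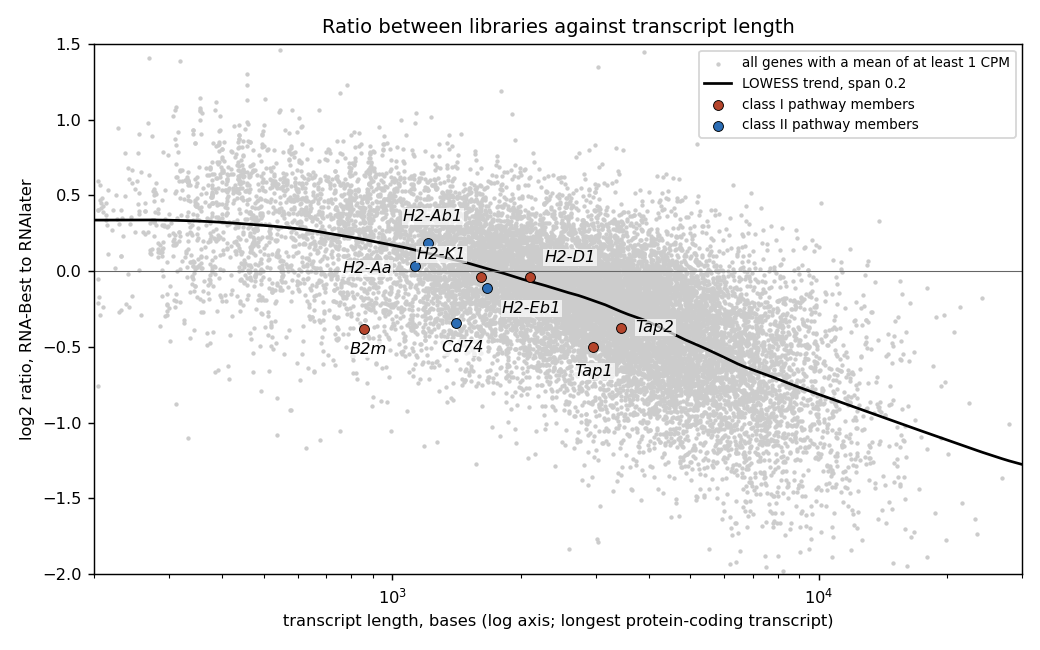
Log2 ratio of RNA-Best to RNAlater against transcript length in bases (log axis) for all genes tested with a length (grey), the smooth trend (line) and the 9 MHC genes (class I red, class II blue). Genes outside the axis limits are not drawn. B2m, at 860 bases and -0.38, lies furthest below the line among the 9, followed by Cd74, and H2-Ab1 and H2-D1 lie just above it.

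Some of these counts are less certain than others because reads can be shared. A read was 51 bases, and 129 of the 1569 windows of that length in the H2-K1 transcript (8.22%) also occurred in transcripts of other genes, 25 genes in all. For H2-D1 it was 281 of 2052 windows (13.7%), which occurred in 154 other genes. Of these genes, 120 were on chromosomes other than 17, and 12 of the windows (0.585%) were shared with such genes alone. Among the windows of H2-K1, 102 were in H2-D1 as well. The longest run that both transcripts held was 91 bases of coding sequence within 1 exon, at chr17:33997343-33997433 on the minus strand for H2-K1 and chr17:35265911-35266001 on the plus strand for H2-D1, and it is shown because a read inside it cannot be given to either gene.
H2-K1 and H2-D1: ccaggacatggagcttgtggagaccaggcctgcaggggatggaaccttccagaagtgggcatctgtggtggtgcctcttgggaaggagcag

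Both heavy chains had fractional counts, as did H2-Ab1, H2-Eb1 and Tap1, while B2m, H2-Aa, Cd74 and Tap2 had whole counts. No window of B2m, H2-Aa, H2-Ab1, H2-Eb1 or Cd74 occurred in another gene's transcript. For Tap1, 6.41% of the windows were shared, mostly with Psmb9 on the opposite strand, and for Tap2 12.4%, mostly with the antisense genes Gm15821 and Gm20496. On the same strand the shares were 0.827% and 0.708%. The strand setting of the counting is not given in the sources used here, so reads of these overlaps cannot be told apart by strand. The level was also summed over 32 class I genes and pseudogenes of the H2 region that carry an H2 symbol. It was 1590 CPM with RNA-Best against 1662 with RNAlater (log2 ratio -0.06, -0.08 to -0.05). H2-K1 and H2-D1 together gave -0.04 (-0.05 to -0.02). The larger sum removes the division of reads among its genes, but not with genes left out of it. Genes with a Gm symbol were left out, and Gm7030 alone held 99 windows of H2-D1 and 42 of H2-K1.

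The other class I heavy chains had ratios on either side of those of H2-K1 and H2-D1. Of 20 matched genes, 19 were tested, 8 higher and 11 lower in RNA-Best, beside 33.0% of all genes tested that were higher. Their median log2 ratio was -0.01, and 12 were above the median of all genes. H2-Q4, a nonclassical heavy chain gene and the most abundant of the list, had 131 CPM in RNA-Best and 167 in RNAlater (log2 ratio -0.35, -0.40 to -0.30). H2-Q2 had 87.6 and 72.6 CPM and the highest ratio, 0.27 (0.21 to 0.34). H2-T24 had the lowest, -0.75, at 1.52 and 2.91 CPM. Genes of 1 family thus differed in direction, and reads shared among them make each value uncertain. H2-Q8, H2-Q9 and H2-T9 were not matched.

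The genes that cut, trim and load class I peptides were close to equal. Of 11 genes, 5 were higher and 6 lower in RNA-Best, beside 33.0% of all genes tested that were higher. Their median log2 ratio was -0.01, and 9 were above the median of all genes. The chaperones Pdia3 (1070 and 996 CPM, log2 ratio 0.10) and Calr (805 and 822 CPM, -0.03) were the most abundant. Psmb8, a catalytic subunit of the immunoproteasome, had the highest ratio, 0.21 (0.10 to 0.33), at 26.4 and 22.8 CPM. Erap1, the aminopeptidase that trims peptides in the endoplasmic reticulum, had the lowest, -0.30 (-0.39 to -0.21), at 37.0 and 45.6 CPM. Psmb8 lies in the MHC beside Tap1 and Tap2, and its direction was the opposite of theirs. Tap1 was below all 11 of these genes in log2 ratio, and so were Tap2 and B2m.

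Of the other class II genes, 9 were tested, 4 higher and 5 lower in RNA-Best, beside 33.0% of all genes tested that were higher. Their median log2 ratio was -0.01, and 6 were above the median of all genes. Ctss, the protease cathepsin S that removes the invariant chain, had 96.3 and 90.9 CPM (log2 ratio 0.08, 0.02 to 0.14). Lgmn, the endosomal protease legumain, had 107 and 128 CPM and the lowest ratio, -0.25 (-0.31 to -0.20). March1, a ubiquitin ligase that takes class II molecules off the surface, had 2.02 and 1.58 CPM and the highest, 0.28 (-0.09 to 0.81), an interval that includes 0. Cd74 was thus below each of these 9 genes in ratio. H2-Oa was under the limit of 1 CPM. March1 is also called Marchf1, and H2-Ea was found under the symbol H2-Ea-ps alone.

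The regulators that act on the X and Y boxes had lower CPM in RNA-Best for 7 of 9 genes, with a median log2 ratio of -0.29. The other 2 were higher, beside 33.0% of all genes tested. Against the median of all genes the 9 regulators were nearly even, 5 below it and 4 above. Ciita, the class II coactivator, had 48 counts in RNA-Best and about 106 in RNAlater, or 0.890 and 2.37 CPM. It was the only one of the 9 at least 2-fold lower, beside 4.99% of all genes, at a log2 ratio of -1.04 with the pseudocount (interval without it -1.93 to -0.90). Under TMM and DESeq2 scaling the ratio was -0.92 and -0.91, and none of the 9 was 2-fold lower. With a total without Prl and Gh the ratio of Ciita was -1.02. It was then still the 1 gene of the 9 at least 2-fold lower, beside 3.47% of all genes. Nlrc5, the class I coactivator, had 6.08 and 12.5 CPM and a log2 ratio of -0.98. Rfxank, a subunit of RFX, had the highest ratio, 0.09 (-0.09 to 0.28). The highest CPM values were those of Creb1, at 34.0 and 41.6 CPM (-0.29), and Nfyb, at 35.9 and 37.3 CPM (-0.05). These are mostly long transcripts, with a median of 3706 bases, and the median of the list relative to the length trend was -0.01.

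Interferons raise the expression of MHC genes, interferon gamma that of both classes. The lists of interferon signalling and interferon-induced genes, which hold genes of the type I and the gamma response, mostly had a lower CPM in RNA-Best. Of 17 interferon signalling genes, 16 were lower in RNA-Best and 1, Ifngr2 (log2 ratio 0.10, -0.01 to 0.22), was above 0, beside 33.0% of all genes tested. The median of the 17 was -0.52. Against the median of all genes, 12 were below it and 5 above. Irf1, the factor that interferon gamma induces and that acts on class I promoters, had 233 CPM in RNA-Best and 347 in RNAlater (-0.58, -0.61 to -0.54). Stat3 had 180 and 343 CPM and the lowest ratio, -0.93. Of 27 interferon-induced genes, 22 were lower in RNA-Best and 5 higher, beside 33.0% of all genes tested that were higher. Their median was -0.34, and 19 were below the median of all genes. The guanylate-binding protein gene Gbp5 (56.5 and 118 CPM, -1.06) and Oas2 (1.11 and 2.74 CPM, -1.01) were at least 2-fold lower, 2 of the 27 beside 4.99% of all genes. Cxcl9, at 3.58 and 2.38 CPM, had the highest ratio, 0.50. Under each of the other 3 scalings 0 of the 27 genes were 2-fold lower, beside 2.56% to 3.47% of all genes. Under TMM Gbp5 was at -0.88 and Oas2 at -0.87. Gbp2 had 139 and 225 CPM (-0.69) and the chemokine gene Cxcl10 142 and 206 CPM (-0.53). The medians of both lists were -0.34 and -0.16 relative to the median of all genes, and -0.16 and -0.18 relative to the length trend.

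**Figure D4:**
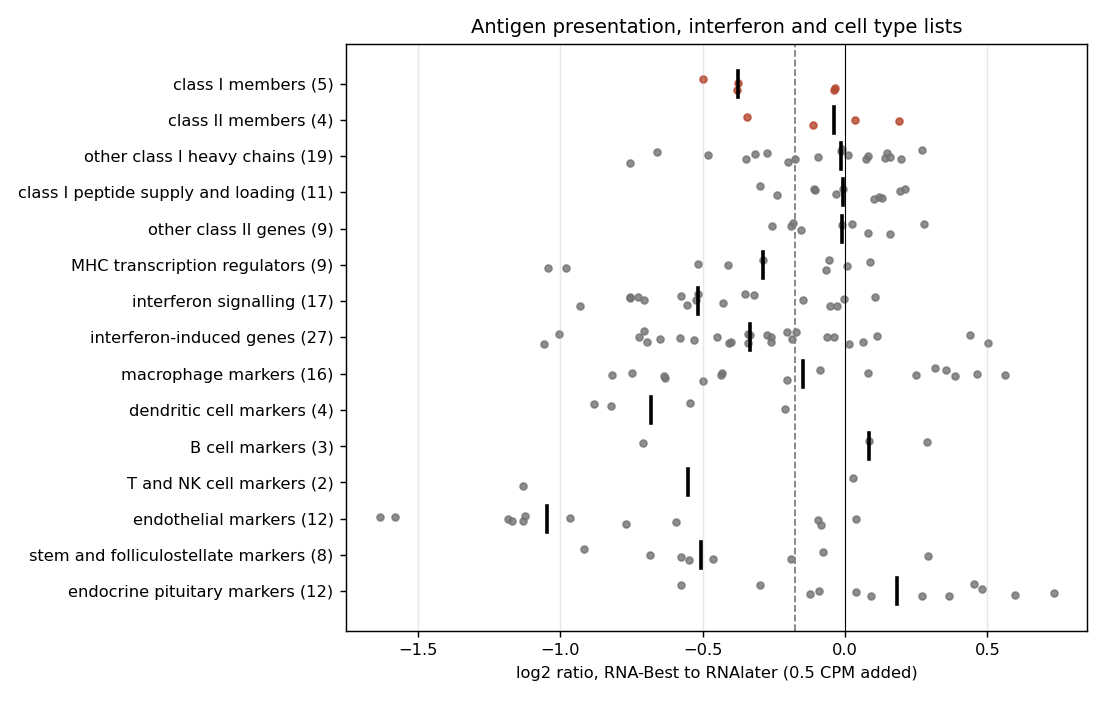
Log2 ratio of RNA-Best to RNAlater for each tested gene (points) of the class I and class II genes (red) and of 13 other lists (grey), with the number of genes in brackets, the median of each list as a bar and the median of all genes tested (-0.18) as a dashed line. The heavy chain, peptide supply and other class II lists center near 0, at -0.01 each, while interferon signalling (-0.52) and endothelial markers (-1.05) lie further left.

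Markers of the cells that could supply these transcripts also differed between the libraries, and their part in the results was not tested. In a bulk sample, fewer cells of a type and less RNA per cell cannot be told apart. Of 16 macrophage markers, all detected, 7 were higher and 9 lower in RNA-Best, beside 33.0% of all genes tested that were higher. Against the median of all genes, 8 were on either side. The macrophage markers summed to 405 CPM in RNA-Best against 386 in RNAlater (log2 ratio 0.07). They split within the list, from C1qa, a complement component, at 58.7 and 39.5 CPM (log2 ratio 0.56) to the chemokine receptor Cx3cr1 at 4.49 and 8.30 CPM (-0.82).

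Markers of other immune cells had low levels. The 10 dendritic cell markers summed to 19.1 CPM in RNA-Best and 31.5 in RNAlater. The 4 of them that were tested were all lower in RNA-Best (median -0.68), while 33.0% of all genes tested were higher. Zbtb46 was the lowest at 5.36 and 10.3 CPM (-0.88). The 7 B cell markers summed to 10.1 and 10.2 CPM, with 3 tested and Cd79b the most abundant at 6.42 and 5.17 CPM. The 10 T and NK cell markers summed to 11.1 and 14.7 CPM, with 2 tested, Lck (0.03) and Cd4 (-1.13, from 108 and 224 counts). Cd4 was at -0.98 under TMM and at -1.06 with a total without Prl and Gh. No marker of these lists was at 0 in both libraries.

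The cells of the gland itself were present as labelled. The 12 endocrine markers, hormone genes among them, held 31.4% of the counts in RNA-Best and 24.7% in RNAlater. Most of that was Prl, at 235654 and 172302 CPM. Of the 12 endocrine markers, 8 were higher and 4 lower in RNA-Best, beside 33.0% of all genes tested that were higher. They ran from Tshb (log2 ratio 0.73) to Ghrhr (-0.58). Endothelial markers were the list furthest apart, 487 CPM in RNA-Best and 940 in RNAlater summed over 12 genes. Of these, 11 were lower in RNA-Best and 1 higher, beside 33.0% of all genes tested that were higher. At least 2-fold lower were 6 of the 12, beside 4.99% of all genes. Below the median of all genes were 9 of the 12, and Kdr was the lowest at 36.6 and 115 CPM (-1.63). Under TMM 3 of the 12 were at least 2-fold lower, beside 2.65% of all genes, and under DESeq2 scaling 2, beside 2.56%. Kdr and Flt1 were among them under both. With a total without Prl and Gh, 6 of the 12 were at least 2-fold lower, beside 3.47% of all genes. The 9 stem and folliculostellate cell markers summed to 315 and 457 CPM. Of the 8 tested, 7 were lower in RNA-Best and 1 higher, beside 33.0% of all genes higher, and their median was -0.50. Relative to the length trend, the endothelial median was -0.74 and the stem and folliculostellate median -0.49. The dendritic cell median was -0.43 and that of the T and NK cell markers -0.40, from few tested genes. Those of the macrophage, B cell and endocrine markers were 0.02, 0.02 and 0.07.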

How the data were processed

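Poly(A) RNA of 2 samples was sequenced as 51-base single reads, and the samples were grouped by the reagent named in the labels. The authors deposited estimated counts per gene that were not normalized. The submitters' processing notes name STAR 2.5.1b, featureCounts 1.5.0-p1 and mm10. Of the values, 20.3% were not whole, and the option that divided reads is not given in the sources used here. Identifiers were matched to GENCODE M21 on GRCm38 (46488, 98.8%). Counts were scaled by library total, and log2 ratios used a pseudocount of 0.5 CPM, which understates the ratio of low genes. Genes under a mean of 1 CPM were not tested. Ratio intervals were exact conditional binomial (Clopper-Pearson) and CPM intervals exact Poisson, on rounded counts without the pseudocount. A count of 0 was taken to allow 3 counts. The length trend was a LOWESS fit of span 0.2 (statsmodels 0.14.6) on the longest protein-coding transcript, or the longest of any type for genes without one. A length was available for 16443 of the genes tested. Scaling factors came from edgeR 4.0.16 and DESeq2 1.42.0 in R 4.3.3. Steps were tested on simulated data.

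The 9 genes, the lists and the motifs were chosen with earlier results of these data known. Outside the 9, the text names in each list the ends of the ratio, the 2 most abundant genes (for the marker lists, a selection of these) and genes at least 2-fold apart. Nlrc5, H2-Oa, Psmb9 and the H2 pseudogenes fall outside this rule and were named after their values were seen. The design foresaw no fit, since 1 library per group leaves no residual degrees of freedom.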

Additional observations from a re-analysis of the deposited data

How the results depend on the processing

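The limits were 1 library per group, pooled animals and a ratio that moved with transcript length. Reads could also be shared among H2 genes, with genes of a Gm symbol and, for H2-D1, with genes elsewhere. No gene of the 9 was at least 2-fold apart in either direction under any of the 9 other settings tried. Changing the pseudocount to 0.1 or 5 CPM left the 3 medians within counting error and 2 genes higher. Changing the filter to none or 10 CPM could not move any value, because all 9 genes had a mean of at least 10 CPM. These filter settings are still counted among the 9 settings and the 81 values below, so they add no check. Under TMM, DESeq2 size factors and a total without Prl and Gh, 5 genes were higher in each case. The median log2 ratio of the 9 genes was then 0.0608, 0.0725 and 0.0155, that of the class I genes -0.20, -0.19 and -0.25, and that of the class II genes 0.13, 0.145 and 0.0884. These values shift with the median of all genes. With the length trend removed, the class I median was -0.11 and the class II median -0.12. With the longest transcript of any type, an alternative chosen after seeing the data, the class I median was -0.14 and the class II median -0.03. Of 81 values of single genes under the alternatives, 42 moved beyond counting error and 12 changed sign. Of these, 3 each were under TMM, DESeq2 and the total without Prl and Gh, and 2 with the trend removed. No paired analysis was possible because neither group had a second library, and for the same reason no library could be left out.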

Other observations

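Further sums over genes of the H2 region were taken, some of which share genes with the list of heavy chains. The H2-Q genes and pseudogenes, 8 in all, summed to 374 CPM with RNA-Best against 425 with RNAlater (log2 ratio -0.19, -0.21 to -0.16), and the 6 H2-T genes and pseudogenes to 134 and 130 CPM. The pseudogene H2-K2 had an estimated 748 counts in RNA-Best and 625 in RNAlater, 13.9 CPM in each. The 7 H2-M10 genes, which are known for expression in vomeronasal neurons, held 18.6 and 6 counts in all.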
